A study of Mus musculus with 4 samples.

Results

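The genes here belong to families of chromatin remodelers and of enzymes or readers of histone marks, although not every product need act on histones. They were chosen by symbol (Smarc, Chd, Cbx, Hdac, Kat, Kdm, Setd and Kmt families), each through probes that carry 1 gene symbol in the annotation of the array. The array held 64 such genes with 73 probes, among 13410 named genes. Of the 64, 43 were measured on 3 or 4 arrays, that is 67.2% of them, as against 62.5% of all named genes (8384 genes).

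On each of the 4 arrays, lung RNA of a different A/J mouse treated with bleomycin was set against 1 shared pool of lung RNA from control A/J mice. A/J is an inbred laboratory strain, and bleomycin is a DNA-damaging drug with which lungs are injured experimentally. All RNA was amplified before it was put on the 2-colour arrays. The sources used here do not give dose, route, time, age, sex or the number of control mice in the pool.

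The deposited values are log ratios between the channels, read here as log2 and centred on the median of each array; fold sizes hold only under that reading. Which RNA is on top of the ratio is not stated, so each value is given by its side of 0. If the treated lung is on top, above 0 means higher in the treated lung, and every sign turns if it is the pool. Since there was 1 pool, each p-value takes in how far the 4 treated mice differ from each other, but not how far control mice do.

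DNA in the nucleus is wound around histones, and the access of other proteins to it depends on remodelers and on marks placed on the histone tails. Remodelers of the SWI/SNF, ISWI and CHD families use ATP to slide or evict nucleosomes. Acetyltransferases and deacetylases add and remove acetyl groups, which go along with open chromatin, while methyltransferases and demethylases do the same for methyl groups, whose effect depends on the residue. Readers such as the Cbx proteins bind methylated histones and carry repressive complexes.

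Smarca2, Kdm4c and Kmt2b passed the test above 0 and Kdm5c passed below it (limma, adjusted p at most 0.05 over all genes tested). These 4 of 43 genes are 9.3%, while 12.5% of all 8384 genes passed; above 0 the background was 7.69% and below it 4.81%. The share is thus near that of all genes, and all 4 genes differed by less than 2-fold. At an unadjusted p under 0.05 there were 12 of the 43, or 27.9%, as against 31.8% of all genes. In lung tissue as a whole, fewer cells of a type and less RNA per cell cannot be told apart.

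The means of the 43 genes ran from -0.72 (Setd4) to 0.50 (Smarca2), with 21 above 0 (48.8%, and 50.2% of all genes), 22 below it and a median of -0.01. The median size of the mean, whatever its sign, was 0.14, and it was 0.16 over all genes. None of the 43 had a mean past 2-fold, which 2.14% of all genes had. For 42 of the 43, the 95% interval of the mean from limma lay inside a 2-fold difference either way, and Setd4 was the exception, with an interval from -1.21 to -0.24. Over all genes this share was 91.3%. The values had the same sign on every array for 15 of the 43 (34.9%), below the 46.7% among all genes.

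**Figure D1:**
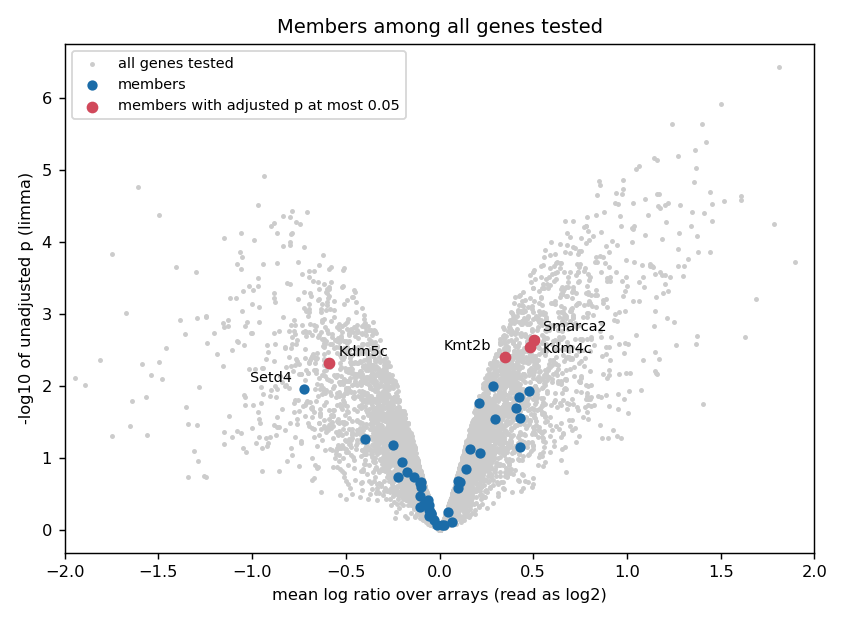
Each point is a gene, with its mean log ratio over the arrays on the x axis and the negative log10 of its unadjusted limma p on the y axis; grey points are all genes tested (14 lie outside the drawn range), blue points the chromatin genes and red points those past the test. The blue and red points sit within the grey cloud, and the red ones lie at means of 0.50, 0.48, 0.35 and -0.59.

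Smarca2 encodes BRM, one of the alternative ATPases of the SWI/SNF complex. Its log ratios in mice 2, 3 and 4 were 0.42, 0.46 and 0.62, with no value in mouse 1. All available values lay above 0 and close together, with a mean of 0.50 ± 0.11 (SD, n = 3; limma adjusted p = 0.0314).

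Kdm4c encodes a demethylase that acts on methylated lysines of histone H3, among them the H3K9 mark of silent chromatin. Its log ratios in mice 1 to 4 were 0.79, 0.46, 0.30 and 0.37. Mouse 1 was the highest, and every array lay above 0, with a mean of 0.48 ± 0.22 (SD, n = 4; limma adjusted p = 0.0353).

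Kmt2b encodes a methyltransferase that places the H3K4 mark of active promoters. Its values of 0.35, 0.31, 0.52 and 0.21 in mice 1 to 4 were all above 0. The mean was 0.35 ± 0.13 (SD, n = 4; limma adjusted p = 0.0412).

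Kdm5c, on the X chromosome, encodes a demethylase that removes the H3K4 mark. Its log ratios in mice 1, 2 and 4 were -0.83, -0.60 and -0.34, with no value in mouse 3. All available values lay below 0, with a mean of -0.59 ± 0.25 (SD, n = 3; limma adjusted p = 0.0439).

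The 4 calls lie near the threshold, and each was lost in every limma fit that left out 1 mouse and still had 3 values of the gene. The adjusted p then ran from 0.0690 to 0.0863 for Kdm4c and from 0.0821 to 0.114 for Kmt2b; it was 0.0531 for Smarca2 without mouse 1 and 0.0670 for Kdm5c without mouse 3, arrays on which these genes have no value of their own. The arrays of mice 1 and 2 resembled each other (Pearson r = 0.73 over spots), as did those of mice 3 and 4 (r = 0.86), and with these pairs as a random block 0 of the 43 genes passed limma, as against 402 of all genes (4.79%); the adjusted p of the 4 genes was then 0.0607 to 0.0933.

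The promoters of the genes past the test are shown to set their letters beside the direction of each gene. They come from RefSeq (GRCm38.p6), run 5′ to 3′ on the strand of the gene, here the + strand throughout, and span 250 bases before to 50 after each annotated start. Capitals mark matches, on either strand, to the GC box (GGGCGG), the CCAAT box (CCAAT), the TATA box (TATAAA), an ETS core (CCGGAAG), a cyclic AMP response element (TGACGTCA) and an E-box (CACGTG); these motifs do not overlap in the sequences shown. Kmt2b had no entry.
Smarca2, chr19:26604910-26605209: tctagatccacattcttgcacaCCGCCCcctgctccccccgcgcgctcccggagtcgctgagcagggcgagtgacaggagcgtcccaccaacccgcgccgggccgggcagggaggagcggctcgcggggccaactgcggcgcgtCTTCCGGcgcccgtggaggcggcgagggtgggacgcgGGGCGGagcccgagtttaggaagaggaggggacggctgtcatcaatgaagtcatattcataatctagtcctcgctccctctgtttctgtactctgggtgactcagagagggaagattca
Kdm4c, first start, chr4:74242247-74242546: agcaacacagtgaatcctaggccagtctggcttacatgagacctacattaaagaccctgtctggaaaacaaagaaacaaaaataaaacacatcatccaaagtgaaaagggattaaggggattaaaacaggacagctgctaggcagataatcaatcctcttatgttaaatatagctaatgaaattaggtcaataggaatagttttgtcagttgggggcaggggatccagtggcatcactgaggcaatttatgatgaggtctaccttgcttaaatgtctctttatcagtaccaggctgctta
Kdm4c, second start, chr4:74251629-74251928: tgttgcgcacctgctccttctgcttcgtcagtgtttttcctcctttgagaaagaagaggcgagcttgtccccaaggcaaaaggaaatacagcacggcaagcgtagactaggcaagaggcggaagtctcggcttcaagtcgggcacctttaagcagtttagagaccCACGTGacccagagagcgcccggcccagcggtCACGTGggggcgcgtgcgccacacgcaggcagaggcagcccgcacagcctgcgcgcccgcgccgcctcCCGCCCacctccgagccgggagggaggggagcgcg
Kdm5c, chrX:152232977-152233276: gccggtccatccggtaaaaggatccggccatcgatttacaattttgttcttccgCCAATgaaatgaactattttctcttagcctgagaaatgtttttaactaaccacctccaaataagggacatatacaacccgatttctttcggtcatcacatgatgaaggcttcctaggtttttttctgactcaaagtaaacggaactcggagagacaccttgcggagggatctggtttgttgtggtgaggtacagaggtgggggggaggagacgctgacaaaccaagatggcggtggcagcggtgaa

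Among these promoters, that of Smarca2 (65.7% G and C, 29 CpG dinucleotides) held 2 GC boxes and 1 ETS core. The second start of Kdm4c (64.7% G and C, 28 CpG) held 2 E-boxes and 1 GC box, while the first start (40% G and C, 0 CpG) held none of the motifs. The Kdm5c promoter (47% G and C, 13 CpG) held 1 CCAAT box. Of the 43 genes, 37 matched the table, with 49 promoters. A GC box was in 75.5% of these 49, in 56.3% of the 8470 promoters of all genes tested and in 35.7% of all 32851 promoters of the table. The CCAAT box was in 36.7%, 37.8% and 37.4%, the TATA box in 4.08%, 9.20% and 13.6%, the ETS core in 14.3%, 14.8% and 8.86%, the E-box in 8.16%, 9.43% and 7.15%, and the cyclic AMP response element in 0%, 2.74% and 1.79%. The median promoter of these genes held 65.3% G and C and 28 CpG, compared with 59.3% and 18 among all genes tested, and the part of base composition in the share of GC boxes was not tested. These are descriptions of letters, and several promoters of 1 gene are not independent.

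Of the 13 Smarc genes on the array, 11 were tested, with 1 past the test above 0 and 0 below and a median of -0.03. After Smarca2, the highest were Smarcc2 and Smarcd1, a scaffold and an accessory subunit of SWI/SNF. Smarcc2 had values of 0.66, 0.82, 0.22 and 0.02 in mice 1 to 4 (mean 0.43 ± 0.37, SD, n = 4; limma adjusted p = 0.112), so that mice 1 and 2 were high and mouse 4 was at 0. Smarcd1 showed another order, with 0.11, 0.23, 0.83 and 0.48 (mean 0.41 ± 0.32, SD, n = 4; limma adjusted p = 0.0936).

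Smarca4 encodes BRG1, the ATPase that takes the place of BRM in other SWI/SNF complexes. It had values of -0.29, -0.07, 0.54 and -0.08 (mean 0.03 ± 0.35, SD, n = 4; limma adjusted p = 0.918), with mouse 3 alone above 0. On the same array Smarca2 exceeded Smarca4 by 0.49 in mouse 2 and 0.70 in mouse 4, while in mouse 3 the difference, Smarca2 minus Smarca4, was -0.07.

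The lowest Smarc means were close to 0. Smarca5, the ISWI ATPase gene SNF2H, had -0.005, -0.02, -0.30 and -0.10 (mean -0.10 ± 0.14, SD, n = 4; limma adjusted p = 0.400). Smarcc1, the paralogue of Smarcc2, had 0.17, -0.43 and -0.05 in mice 1, 3 and 4, on both sides of 0 (mean -0.10 ± 0.30, SD, n = 3; limma adjusted p = 0.640). The other members of the class, Smarcb1, Smarcd2, Smarcd3, Smarcad1 and Smarcal1, had means between -0.10 and 0.11. The 8 SWI/SNF subunits had a median of 0.07.

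Of 6 Chd genes, 3 were tested and 0 passed. Chd4, the main ATPase of the NuRD complex, which joins remodeling to deacetylation, had -0.13, 0.06, -0.43 and -0.48 (mean -0.25 ± 0.25, SD, n = 4; limma adjusted p = 0.185). Chd3, which can take its place in NuRD, had 0.88, 0.12, -0.31 and -0.44 (mean 0.07 ± 0.60, SD, n = 4; limma adjusted p = 0.865). Both genes were lowest in mice 3 and 4, and Chd3 had the widest spread between mice of the 43 genes. Without mouse 1, the mean of Chd3 was -0.21. Chd2, of another subfamily, had a mean of 0.10 ± 0.09 (SD, n = 4; limma adjusted p = 0.380) that joins probes on both sides of 0.

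Of 6 Cbx genes, 3 were tested and 0 passed, although 2 of them lay above 0 on every array. Cbx1 and Cbx3 encode HP1 proteins, which bind the H3K9 mark, and Cbx6 a reader of the Polycomb complex. Cbx1 had close values of 0.28, 0.24, 0.20 and 0.12 (mean 0.21 ± 0.07, SD, n = 4; limma adjusted p = 0.0861). Cbx3 had -0.07, 0.06, -0.13 and -0.12 (mean -0.06 ± 0.09, SD, n = 4; limma adjusted p = 0.558). Cbx1 exceeded Cbx3 on all 4 arrays, by 0.28 ± 0.08 (SD, n = 4). Cbx6 had 0.30, 0.40, 0.10 and 0.33 (mean 0.28 ± 0.13, SD, n = 4; limma adjusted p = 0.0617), again with probes that disagree.

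Of 9 Hdac genes, 6 were tested and 0 passed, with a median of 0.12 and a positive class median on each array. Hdac5, a class IIa deacetylase that shuttles between nucleus and cytoplasm, was the highest, at 0.90, 0.10, 0.50 and 0.42 (mean 0.48 ± 0.33, SD, n = 4; limma adjusted p = 0.0680). Mouse 1 was far above mouse 2, and without mouse 2 the mean was 0.60 (limma adjusted p = 0.0536). Over all fits without 1 mouse, the mean of Hdac5 ran from 0.34 to 0.60 and the limma adjusted p from 0.0536 to 0.156. Hdac3, the deacetylase of the NCoR complexes, had 0.13, 0.35, 0.12 and 0.05, all above 0 (mean 0.16 ± 0.13, SD, n = 4; limma adjusted p = 0.198).

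Hdac6, a mostly cytoplasmic enzyme that deacetylates tubulin, was the lowest of the class, at -0.45, -0.34, 0.12 and -0.13 (mean -0.20 ± 0.25, SD, n = 4; limma adjusted p = 0.256), with mouse 3 above 0. Hdac1, a deacetylase of NuRD and SIN3 complexes, had -0.03, 0.02 and -0.12 in mice 1 to 3 (mean -0.04 ± 0.07, SD, n = 3; limma adjusted p = 0.750). Its 95% interval, from -0.25 to 0.16, bounds the difference at this precision but does not show that there was none. Hdac7 and Hdac8 had means of 0.10 and 0.14.

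Of 5 Kat genes, 2 were tested and 0 passed. Both are MYST acetyltransferases and had means below 0. Kat6b had 0.14, -0.25, -0.31 and -0.13 (mean -0.14 ± 0.20, SD, n = 4; limma adjusted p = 0.355). Kat8, which acetylates histone H4, had 0.11, -0.07, -0.43 and -0.03 (mean -0.11 ± 0.23, SD, n = 4; limma adjusted p = 0.513). Each was above 0 in mouse 1 and below it in the other mice. For Kat8, the values of mice 2 and 4 average 2 probes, which in mouse 4 were -0.19 and 0.13.

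Of 12 Kdm genes, 6 were tested, with Kdm4c past the test above 0 and Kdm5c below it. Kdm6a, an X-linked demethylase gene whose product removes the H3K27 mark of Polycomb, had the highest single value of the 43 genes. Its values in mice 1 to 4 were 1.10, 0.56, -0.04 and 0.10. Mice 1 and 2 were high and mice 3 and 4 near 0, and the mean was 0.43 ± 0.52 (SD, n = 4; limma adjusted p = 0.192), short of the threshold. Without mouse 1 the mean of Kdm6a was 0.21.

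Kdm5b, a paralogue of Kdm5c that also acts on H3K4, had -0.08, -0.09, -0.13 and 0.08 (mean -0.05 ± 0.09, SD, n = 4; limma adjusted p = 0.624). It lay above Kdm5c on the 3 arrays with both values, by 0.56 ± 0.18 (SD, n = 3). Kdm7a and Kdm8 had means of -0.01 and -0.04. Kdm5c and Kdm6a are both known to escape X inactivation, and the sex of the mice is not given. Xist, the RNA of the inactive X, had values of 0.29, 0.14, 0.21 and -0.08 (mean 0.14 ± 0.16, SD, n = 4; limma adjusted p = 0.299). Of other genes that escape X inactivation, Ddx3x lay above 0 on every array (mean 0.52 ± 0.19, SD, n = 4; limma adjusted p = 0.0239) and Eif2s3x near 0 (mean 0.05 ± 0.09, SD, n = 4; limma adjusted p = 0.630). The part of the X chromosomes in the values of Kdm5c and Kdm6a was not tested.

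Of 13 Setd and Kmt genes, 12 were tested, the fullest coverage of the classes, with Kmt2b past the test above 0 and 0 below. The means of the class ran from -0.72 (Setd4) to 0.42 (Setdb1). Setdb1, which places H3K9 methylation, had 0.21, 0.18, 0.82 and 0.48 (mean 0.42 ± 0.30, SD, n = 4; limma adjusted p = 0.0768), above 0 on every array and highest in mouse 3. Setd6, which methylates the p65 subunit of NF-kappaB, had 0.18, 0.23 and 0.48 in mice 1, 2 and 4, all above 0 (mean 0.30 ± 0.16, SD, n = 3; limma adjusted p = 0.115).

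Setd4 had the lowest mean of all 43 genes. Its values were -1.30, -0.03, -0.78 and -0.77 (mean -0.72 ± 0.52, SD, n = 4; limma adjusted p = 0.0653), with mouse 2 at 0 and the others far below. Without mouse 2, Setd4 passed at a mean of -0.95 (limma adjusted p = 0.032). It was the only one of the 34 genes tested in that fit to do so, as against 8.42% of all genes. In the fits without another mouse Setd4 did not pass, with means up to -0.53 and limma adjusted p up to 0.164. Kmt2a, the MLL1 gene and paralogue of Kmt2b, had 0.15, -0.80, -0.27 and -0.66 (mean -0.40 ± 0.43, SD, n = 4; limma adjusted p = 0.164), so that mouse 1 stood on the other side of 0.

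On each array Kmt2b exceeded Kmt2a, by 0.20, 1.11, 0.80 and 0.87 (0.74 ± 0.39, SD, n = 4). The other methyltransferase genes, Kmt2c, Kmt2e, Kmt5a, Setd1a, Setd2, Setd3 and Setd7, had means between -0.22 and 0.21. Of the 9 paralogue pairs compared in this way, all chosen after their values were seen, Cbx1 and Cbx3, Kmt2b and Kmt2a, Smarcd1 and Smarcd3, and Chd3 and Chd4 kept 1 order on all 4 arrays. An exact permutation test over 4 arrays cannot go below p = 0.125 (two-sided), and none was run.

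**Figure D2:**
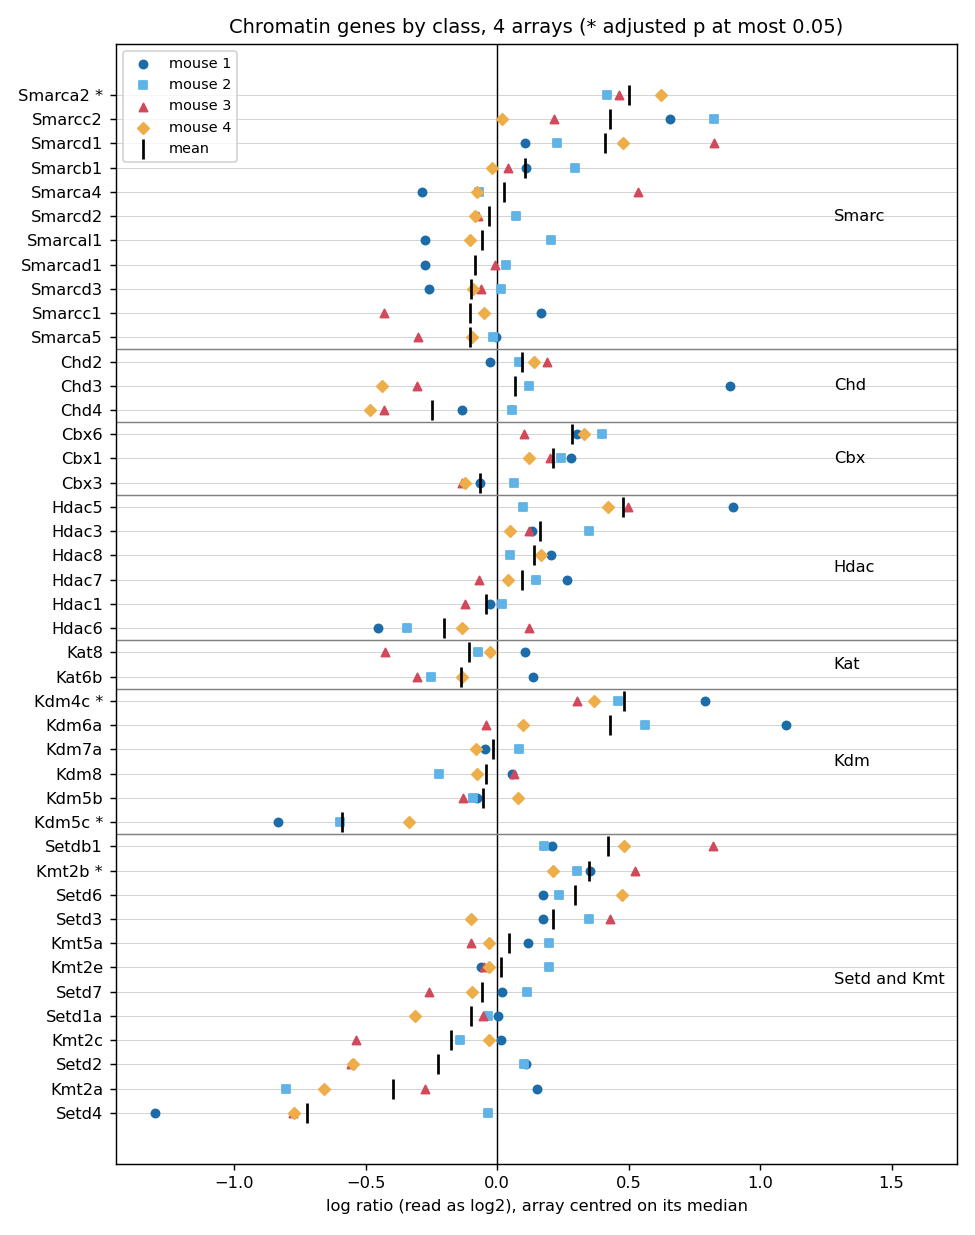
Each line is a chromatin gene, grouped by class and ordered by mean; coloured symbols give the log ratio on the array of each mouse and the black bar the mean, with an asterisk at genes past limma (adjusted p at most 0.05). Smarca2, Kdm4c, Kmt2b and Kdm5c have all symbols on 1 side of 0, while Chd3, Kdm6a and Kmt2a spread widely.

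The median of the means was 0.21 for Cbx (3 genes), 0.12 for Hdac (6), 0.07 for Chd (3), -0.02 for Setd and Kmt (12), -0.03 for Smarc (11), -0.03 for Kdm (6) and -0.12 for Kat (2). Only the Cbx and Hdac classes had a median on the same side of 0 on all 4 arrays, at 0.28, 0.24, 0.10 and 0.12 for Cbx and 0.17, 0.07, 0.12 and 0.05 for Hdac. In mouse 3 the Cbx median is the value of Cbx6, an average of probes at 0.37 and -0.17. With the lower Cbx6 probe alone, Cbx3 would be the median in mice 1 to 3, at -0.07, 0.06 and -0.13. That probe has no value in mouse 4. The spread of the class median between mice was widest in Chd, from -0.44 in mouse 4 to 0.09 in mouse 2, and in Kat, from -0.37 in mouse 3 to 0.12 in mouse 1. With so few genes in a class, these orders are descriptions and were not tested; the Chd median was -0.21 without mouse 1 and -0.20 with 1 probe a gene.

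The Kdm median lay between -0.0045 and 0.011 on every array although the class held the highest single value and 2 of the 4 genes past the test. The other Kdm genes tested did not pass, and the median size of a mean was 0.24, as against 0.10 for Smarc, 0.15 for Hdac and 0.22 for Setd and Kmt. Over all 43 genes, the median was 0.11 in mouse 1 and 0.09 in mouse 2, but -0.05 in mouse 3 and -0.03 in mouse 4. Centring holds the median of all genes between -0.001 and 0.012 on each array.

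**Figure D3:**
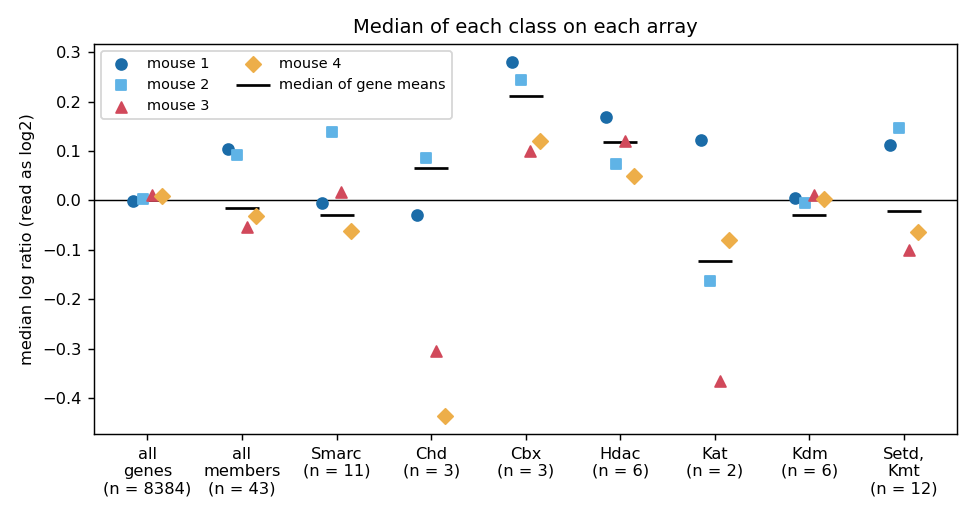
The median log ratio over the genes of each class is drawn for each mouse (coloured symbols), with the median of the gene means as a black line; the first column holds all 8384 genes tested. With the Cbx6 probes averaged, Cbx and Hdac lie above 0 in every mouse, and the symbols of Chd and Kat spread most widely.

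The median spread between mice was 0.16 for the chromatin genes (SD of a gene over its arrays) and 0.17 for all genes. Across the chromatin genes, the values of mice 1 and 2 had Pearson r = 0.53 (40 genes) and those of mice 3 and 4 r = 0.76 (36 genes); over all genes tested these were 0.71 and 0.86. Between mice of different pairs, r ran from 0.33 to 0.52. These correlations are across genes, and the arrays share the control pool.

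For 4 of the genes, 2 probes had values on at least 3 arrays, and in each case the probe means lay on opposite sides of 0. The first Cbx6 probe had 0.69, 1.02, 0.37 and 0.33 and passed as a probe (mean 0.60 ± 0.32, SD, n = 4; limma adjusted p = 0.0384), while the second had -0.09, -0.21 and -0.17 in mice 1 to 3 (mean -0.16 ± 0.06, SD, n = 3; limma adjusted p = 0.253). The Cbx6 value of mouse 4 therefore comes from the first probe alone. Of the 2 Chd2 probes with 4 values, one had a mean of 0.45 ± 0.22 and passed (SD, n = 4; limma adjusted p = 0.0406), the other a mean of -0.20 ± 0.13 (SD, n = 4; limma adjusted p = 0.138). A further Chd2 probe had only 1 value, -0.08 in mouse 4, which is averaged into the Chd2 value of that array.

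The Setd2 probes, for the methyltransferase of the H3K36 mark of transcribed genes, parted most widely in mice 3 and 4. They lay on opposite sides of 0 in mice 1 to 3. One had 0.39, -0.004, -1.49 and -1.03, the other -0.17, 0.21, 0.38 and -0.06, and neither passed (limma adjusted p = 0.307 and 0.624). The Setd7 probes had means of -0.23 ± 0.10 and 0.12 ± 0.22 (SD, n = 4; limma adjusted p = 0.084 and 0.460). Tested one by one, 6 of 47 chromatin probes passed limma, 5 above 0 and 1 below, as against 1273 of all 9909 probes. These were the probes of the genes past the test and 1 each for Cbx6 and Chd2. The sources used here do not say which part of a gene a probe reads.

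**Figure D4:**
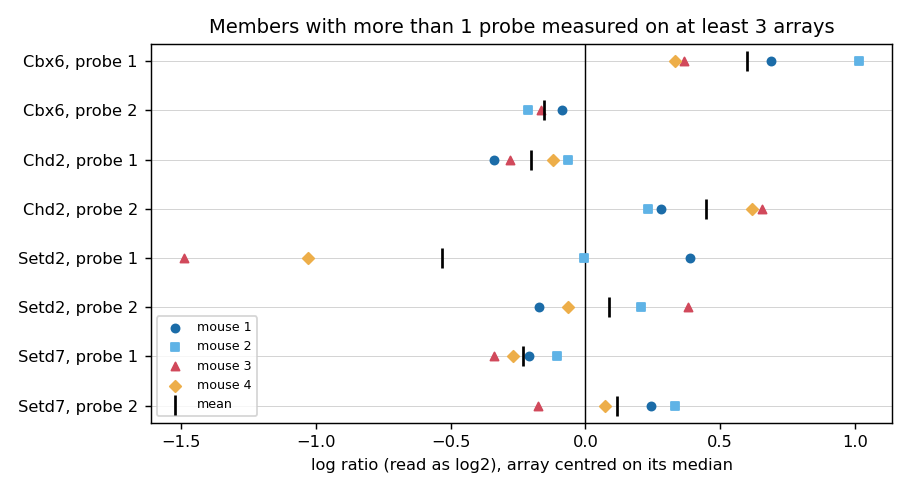
Log ratios by mouse are drawn for each probe of the 4 genes with more than 1 probe on at least 3 arrays, with the mean as a black bar. In Cbx6 and Chd2 the symbols of both probes do not overlap.

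Genes of the same complexes or related activities outside the symbol rule, called partner genes here, were read from 10 lists of 173 names. Some are older names of genes that the rule takes, such as Mll1 for Kmt2a, and were not found on the array. Of the 173 names, 127 were on the array and 88 were tested. Of these 88, 9 passed above 0 and 3 below, with a median of 0.04, beside backgrounds of 7.69% and 4.81% for all genes. The Polycomb genes outside the Cbx family held 4 of the 9, among 14 tested, with 0 past the test below 0 and a median of 0.30. With the paired mice as a random block, 4 of the 12 genes still passed (Eed, Pcgf3, Rcor2 and Carm1), and without 1 mouse 1 to 4 of the partner genes tested passed.

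Eed, a core subunit of the Polycomb complex that methylates H3K27, had 0.45, 0.32, 0.48 and 0.51 (mean 0.44 ± 0.09, SD, n = 4; limma adjusted p = 0.0183). Rnf2, the catalytic subunit of the complex that ubiquitinates histone H2A, had 0.46, 0.21, 0.61 and 0.53 (mean 0.45 ± 0.17, SD, n = 4; limma adjusted p = 0.0296). Its partners Pcgf3 and Pcgf6 had means of 0.40 ± 0.04 and 0.47 ± 0.14 (SD, n = 4; limma adjusted p = 0.0187 and 0.0227). All 4 genes were above 0 in every mouse. Ezh2, the catalytic partner of Eed, had a mean of 0.37 ± 0.21 and missed the threshold (SD, n = 4; limma adjusted p = 0.0582); Mtf2 and Pcgf5 had means below 0, of -0.36 and -0.33, and did not pass either. Pcgf3 was lost in each fit without a mouse (limma adjusted p 0.0516 to 0.0666); Eed and Rnf2 were lost when mouse 1, 3 or 4 was left out and Pcgf6 when mouse 2, 3 or 4 was, with limma adjusted p no higher than 0.0997.

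Sirt1, a deacetylase gene of the sirtuin family, which needs NAD and is no relative of the Hdac enzymes, had the largest difference of the lists. Its values were 1.56, 1.41, 1.49 and 0.40 (mean 1.21 ± 0.55, SD, n = 4; limma adjusted p = 0.0234), high in mice 1 to 3. Sirt1 was lost without mouse 1, 2 or 3 (limma adjusted p 0.0610 to 0.0754). It was the only one of 3 sirtuin genes tested to pass.

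The remaining genes above 0 were spread over 4 lists, with 1 past the test above 0 in each. Tested were 12 genes of the acetyltransferase list, 10 SWI/SNF partners, 10 H3K4 methyltransferase partners and 11 ISWI and INO80 partners. Their medians were -0.04, -0.10, 0.13 and 0.07, and 7.69% of all genes passed above 0. Trrap, a scaffold of acetyltransferase complexes, had a mean of 0.61 ± 0.20 (SD, n = 3; limma adjusted p = 0.0317), and Arid2, a SWI/SNF subunit, of 0.56 ± 0.28 (SD, n = 4; limma adjusted p = 0.0363). Hcfc2, of H3K4 methyltransferase complexes, had a mean of 0.35 ± 0.08 (SD, n = 4; limma adjusted p = 0.0309). Ep400, a remodeler ATPase, had a mean of 0.39 ± 0.14 (SD, n = 4; limma adjusted p = 0.0332) from probes with means of 0.89 and -0.10.

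Below 0 were Rcor2, a partner of the demethylase Kdm1a and class I deacetylases, at -0.70 ± 0.19, the arginine methyltransferase gene Carm1 at -0.49 ± 0.12 and Brpf1, a scaffold of MYST acetyltransferases, at -0.38 ± 0.18 (SD, n = 4; limma adjusted p = 0.0132, 0.0180 and 0.0460). Each was the only gene of its list past below 0, among 9 HDAC partners, 9 other methyltransferases and 12 acetyltransferase genes tested. Of all genes, 4.81% passed below 0. Rcor2 passed in every fit without a mouse (limma adjusted p 0.0324 to 0.0499). Trrap, Arid2, Hcfc2, Ep400 and Brpf1 were lost in each such fit in which they had 3 values, and Carm1 when mouse 3 or 4 was left out, with limma adjusted p no higher than 0.121. No gene of the DNA methylation list (5 tested) or of the demethylases outside the Kdm names (5 tested) passed.

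**Figure D5:**
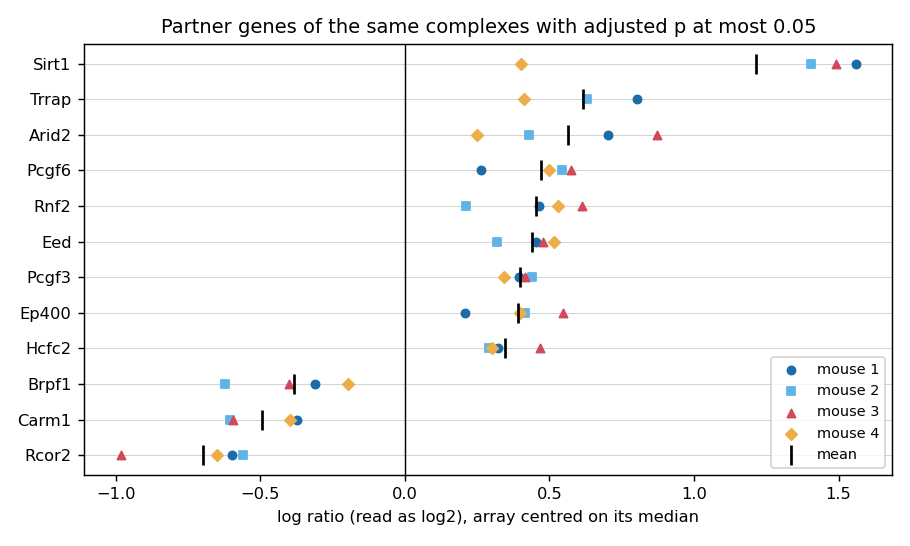
Log ratios by mouse of the 12 partner genes past limma, ordered by their mean (black bar). The 9 genes above and the 3 below 0 have every symbol on 1 side, and Sirt1 in mouse 4 stands apart from the other mice.

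Marker genes of some other cell types lay far from 0. Endothelial markers passed above 0 in 7 of 8 tested (median 0.93), and fat markers passed below 0 in 4 of 5 (median -1.59). Striated muscle markers passed below 0 in 3 of 9 (median -1.56) and neutrophil markers in 2 of 4 (median -1.12). Of 11 markers of proliferating cells, 0 passed limma, with medians of -0.46, -0.52, 0.02 and -0.02 in mice 1 to 4, and of 7 lymphocyte markers 0 passed (median 0.06). Alveolar type I markers had 2 of 6 past above 0 and 1 below (median 0.82). With 0 past below 0, alveolar type II markers had 1 of 7 past above (0.19), club and ciliated cells 1 of 6 (0.20), fibroblasts 1 of 5 (0.23) and macrophages 1 of 4 (0.04). The part of cell makeup in the values of the chromatin genes was not tested. Log ratios hold no level, so the presence of lung cells could not be read from them.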

How the data were processed

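The authors deposited 1 log ratio per spot and array, read here as log2 from its range; the sources used here give neither base, direction nor dyes, nor scanner, background correction or normalization. Depth has no counterpart in these values, and the number of arrays limits the precision. The table held 17280 spots and 0 other value columns; 14722 spots carried 1 gene symbol in the platform annotation, which can be old.

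Each array was centred on its median, probes of 1 symbol were averaged on each array, and genes with at least 3 values were tested. The mean was tested against 0 with limma 3.58.1 (R 4.3.3; lmFit with an intercept, eBayes, two-sided, Benjamini-Hochberg over 8384 genes, threshold 0.05), which was tested on simulated data. The simulated arrays were drawn independently, so that check does not cover the resemblance between the real arrays or their shared pool. Labels number the mice 1 to 4, and each was 1 replicate.

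Genes and lists were chosen with earlier results of these data known. Named in full were genes past the test and, per class, the 2 highest and 2 lowest; of each partner list, up to 4 past the test. Alternatives were no centring, scaled arrays, 4 values, 1 probe a gene, robust eBayes, each mouse left out, paired mice as a random block and, added after seeing the data, single probes.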

Additional observations from a re-analysis of the deposited data

Results flagged for a closer look

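Of 44 named genes with 4 values, 3 had 1 mouse far from the others by Dixon's 95% criterion for 4 samples, which chance alone passes in about 1 of 20 groups; among all 6057 genes with 4 values, 304 (5.02%) did. Kmt2e had 0.20 in mouse 2 and between -0.06 and -0.03 in the other mice. Its value in mouse 4 averages 2 probes, and on the probe with 4 values (-0.06, 0.20, -0.05 and -0.17) the gap was 0.673 of the range, under the criterion. The partner gene Sirt1 had 0.40 in mouse 4, and Hcfc2 had 0.47 in mouse 3.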

How the results depend on the processing

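Of the 43 chromatin genes, 4 passed limma with no centring, with arrays scaled to 1 median absolute deviation and with robust eBayes, the same genes each time. Of all genes, 12.6%, 14.1% and 12.0% passed in these fits. With 1 probe a gene 5 passed (Cbx6 added, mean 0.60, limma adjusted p = 0.0388), as against 13.1% of all genes. Tested singly, 6 of 47 probes passed, as against 1273 of all 9909 probes. With values on all 4 arrays, 2 of 33 chromatin genes passed, as against 17.6% of all genes. Smarca2 and Kdm5c have 3 values and were not in that fit. With the paired mice as a random block 0 passed, as against 4.79% of all genes. Without 1 mouse, 0 to 1 passed, and of the partner genes 1 to 4; these fits hold fewer arrays and genes, and 3.95% to 8.42% of all genes passed in them. Of 390 values of the 43 genes under alternatives, 14 lost and 2 gained the call, and 0 called values turned sign. Among genes without a call, 11 means crossed 0 under an alternative.

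The Kdm median was -0.018 with no centring and 0.19 with 4 values, where the Smarc median was 0.066; the Chd median was -0.20 with 1 probe a gene. Without 1 mouse the medians ran from -0.0385 to 0.12 for Smarc, from -0.21 to 0.082 for Chd, from 0.19 to 0.24 for Cbx, from 0.09 to 0.15 for Hdac, from -0.022 to 0.24 for Kdm, from -0.20 to -0.04 for Kat, from -0.11 to 0.02 for Setd and Kmt and from 0.01 to 0.03 for the 34 to 38 chromatin genes with 3 values in these fits. The cause of these shifts was not tested. No paired analysis was possible because there is 1 group of treated mice and 1 pool.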

Other observations

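Of the 64 chromatin genes, 21 had values on fewer than 3 arrays and entered no test: 6 had 2 values, 8 had 1 and 7 had 0. Kdm1a, a demethylase gene of the H3K4 mark, had 0.43 in mouse 1 and 0.16 in mouse 2, and Kat14 had 0.24 and 0.33 in the same mice. Kat2a had -0.06 in mouse 2 and -0.13 in mouse 4, Kat2b -0.10 in mouse 2 and -0.17 in mouse 3, Cbx7 -0.01 in mouse 1 and -0.15 in mouse 4, and Kdm3b 0.04 in mouse 1 and -0.10 in mouse 2. Hdac2 had 0.59 in mouse 2. The genes Cbx2, Chd6, Hdac11, Kdm4b, Kdm5a, Kmt5b and Smarce1 also had 1 value, between -0.19 and 0.04. Cbx8, Chd1, Chd1l, Hdac9, Kdm2b, Kdm5d and Smarca1 had none.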
